A study of Homo sapiens with 6 samples.

Results

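The genes described here are 10 genes of the circadian clock, taken as the rows of the count tables whose symbol is PER1, PER2, PER3, CRY1, CRY2, NR1D1, NR1D2, ARNTL, CLOCK or DBP. Each symbol matched 1 row of the 56832 in each table, and all 10 passed the filter on low counts. They were measured by poly(A) RNA-seq in a GLO1-knockout derivative of HEK293T, a cell line from human embryonic kidney. The product of GLO1, glyoxalase 1, begins the clearance of methylglyoxal (MGO), a dicarbonyl that arises from glycolysis. There were 3 libraries of knockout cells given 0.2 mM MGO overnight (numbered 1, 3 and 4) and 3 libraries of untreated knockout cells (numbered 1, 2 and 4). Both groups carry the knockout, wild-type cells were not analysed here, and the sources used here do not say whether the line is a single clone. Whether each library had its own culture is not stated in the labels, and p-values therefore describe the spread among these libraries, part of which may be technical. No label gives the clock phase of the cells or a step that set it, and each group was sampled at 1 time.

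The clock is a loop of transcription and repression that runs in most mammalian cells with a period of about a day. ARNTL (also called BMAL1) and CLOCK pair on E-box elements and switch on the PER and CRY genes, whose proteins return to the nucleus and hold the pair in check. The nuclear receptors NR1D1 and NR1D2 (REV-ERB alpha and beta), also switched on through E-boxes, repress ARNTL through ROR elements, and DBP, a further E-box target, activates genes through D-box elements. In cultures that have not been synchronised, single cells run out of phase and a bulk measurement averages over them. In bulk samples, fewer cells in a state and less RNA per cell cannot be told apart.

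Total counts were 19195920 to 21544749 in the MGO libraries and 41002134 to 45910040 in the untreated libraries, so MGO values rest on fewer reads, a mean total of 0.455 times the untreated one. The mitochondrial share of counts was 5.34% to 8.17% in MGO and 4.20% to 5.42% in untreated libraries, highest in library 1 of either group. Of 10 RNAs listed as lacking a poly(A) tail, 6 could be tested and all 6 were higher in MGO (adjusted p under 0.05, edgeR). By this rule 41.8% of all tested genes were higher and 41.2% lower. The 10 RNAs summed to 614 to 648 CPM in MGO and 164 to 191 CPM in untreated libraries, with 3 at 0 in every library. The part of depth, mitochondrial share and untailed RNA in the values below was not tested beyond the settings named beside them. GLO1 itself had 2434, 2641 and 3048 counts in MGO libraries 1, 3 and 4 and 2365, 2246 and 1969 counts in untreated libraries 1, 2 and 4. Scaled to library size it stood at 140 ± 5.30 CPM in MGO and 48.1 ± 2.57 CPM in untreated cells (log2 fold change 1.55, adjusted p = 6.96e-25, edgeR), and such values do not show a small coding lesion. Of 8 kidney and epithelial markers 7 could be tested, of which 3 were higher and 4 lower in MGO, beside 41.8% and 41.2% of all tested genes. The keratin KRT8 stood at 824 CPM in MGO and 525 CPM in untreated cells, while the cadherins CDH1 (4.95 CPM in MGO and 10.3 CPM in untreated cells) and CDH2 (94.7 CPM in MGO and 206 CPM in untreated cells) were lower. The kidney factors PAX2 (2.78 CPM in MGO and 13.2 CPM in untreated cells) and WT1 (2.35 CPM in MGO and 7.33 CPM in untreated cells) were lower too, and PAX8 was at 0 in MGO and 0.044 CPM in untreated cells. Neural genes known from this line summed to 96.0 to 101 CPM in MGO and 236 to 237 CPM in untreated libraries. Most of that difference lay in NEFL (38.1 CPM in MGO and 165 CPM in untreated cells). INA stood at 59.9 CPM in MGO and 69.6 CPM in untreated cells, and NEFM at 0.440 and 1.57 CPM. The 4 leukocyte markers summed to at most 0.166 CPM and the 3 endothelial ones to at most 0.442 CPM in any library. The 4 fibroblast markers summed to 10.9 to 12.8 CPM in MGO and 23.3 to 24.5 CPM in untreated libraries, nearly all of it COL1A1, with COL1A2 at 0 in every library.

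Members of the clock loop differed in direction between MGO and untreated cells. PER2 rose 3.56-fold, CRY1 2.13-fold and NR1D2 1.86-fold, with smaller rises of ARNTL, PER1 and NR1D1. DBP fell 4.08-fold and CLOCK fell slightly, while PER3 and CRY2 did not pass the test. In all, 6 of the 10 rose and 2 fell (edgeR quasi-likelihood test with Benjamini-Hochberg adjustment over all 17415 tested genes, adjusted p under 0.05). By the same rule 83.1% of all tested genes differed between the groups, 41.8% higher and 41.2% lower in MGO, so the number of changed clock genes was near the background and is not a result about them. Of the 10, 2 rose at least 2-fold (19.8% of all tested genes did) and 1 fell at least 2-fold (16.7%). The groups did not overlap for 8 of the 10 genes (83.5% of all tested genes). The median log2 fold change was 0.35 over the 10 genes and 0.01 over all tested genes. What follows gives TMM-scaled CPM (read counts scaled to a common library size) computed from the raw counts, with mean ± SD and n = 3 per group, and a change is measured against the library as a whole, since no label names a spike-in.

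**Figure D1:**
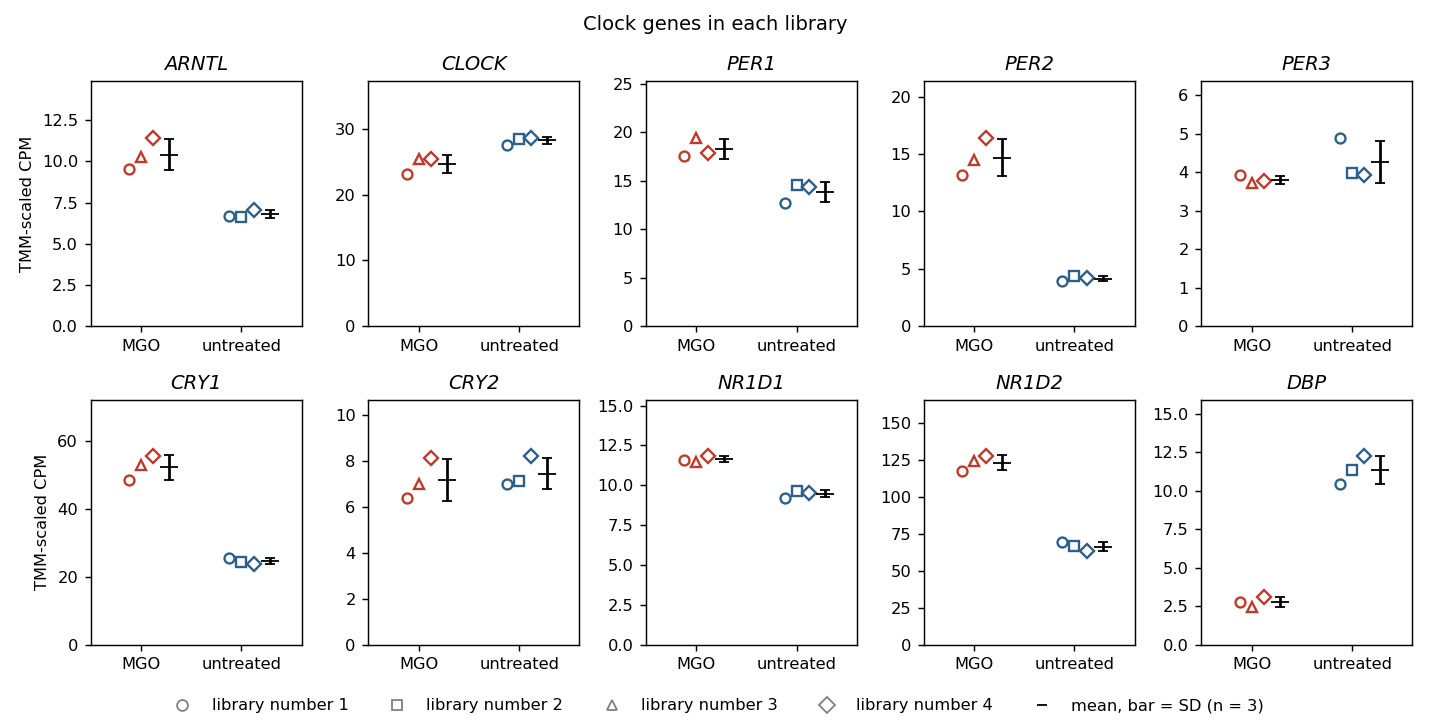
TMM-scaled CPM of each clock gene in every MGO library (red, left) and untreated library (blue, right), with marker shape for the library number and mean with SD in black; each vertical axis starts at 0 and has its own scale. PER2, CRY1 and NR1D2 lie higher and DBP lower in MGO, while the groups overlap for PER3 and CRY2.

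The promoters of 5 genes are shown because these genes cover the arms of the loop and include the largest rise and the largest fall. Each is the RefSeq window (GRCh38.p14) of 250 bases before to 50 bases after an annotated start, read on the gene's strand, and all 10 genes had at least 1 window. Capitals mark exact matches, sought on both strands, to the E-box CACGTG, the D-box forms TTATGTAA, TTACGTAA and TTATGCAA, the cAMP response element TGACGTCA, the ROR element TAGGTCA with AA, AT, TA or TT ending 2 or 3 bases before it, or the E-box-like CACGTT. The last was added after the windows had been searched. Of 35116 promoter windows, 7.26% hold the E-box, 1.84% a D-box form, 1.85% the cAMP response element, 0.718% the ROR element and 5.34% CACGTT. The windows are PER2 (minus strand, chr2:238288561-238288860), CRY1 (minus strand, chr12:107093500-107093799), NR1D2 from its second listed start (plus strand, chr3:23945871-23946170), ARNTL from its first listed start (plus strand, chr11:13277540-13277839) and DBP (minus strand, chr19:48637330-48637629).
PER2: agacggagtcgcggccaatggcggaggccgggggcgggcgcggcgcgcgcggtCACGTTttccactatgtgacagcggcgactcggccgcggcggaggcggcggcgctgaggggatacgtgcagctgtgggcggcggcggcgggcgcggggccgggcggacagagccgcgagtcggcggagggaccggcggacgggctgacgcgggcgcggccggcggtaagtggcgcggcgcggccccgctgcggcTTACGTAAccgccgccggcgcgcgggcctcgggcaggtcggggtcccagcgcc
CRY1: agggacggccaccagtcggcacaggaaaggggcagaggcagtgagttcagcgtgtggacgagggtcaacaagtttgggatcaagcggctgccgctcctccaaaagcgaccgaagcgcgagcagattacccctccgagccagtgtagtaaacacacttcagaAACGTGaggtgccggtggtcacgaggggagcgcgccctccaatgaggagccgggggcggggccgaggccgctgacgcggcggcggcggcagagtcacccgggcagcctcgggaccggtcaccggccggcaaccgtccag
NR1D2: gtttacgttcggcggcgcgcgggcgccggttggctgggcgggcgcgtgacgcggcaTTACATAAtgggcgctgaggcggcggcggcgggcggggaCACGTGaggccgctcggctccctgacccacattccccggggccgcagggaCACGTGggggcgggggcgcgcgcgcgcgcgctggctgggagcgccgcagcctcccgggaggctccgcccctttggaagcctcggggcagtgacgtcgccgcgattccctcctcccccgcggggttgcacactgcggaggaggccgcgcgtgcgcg
ARNTL: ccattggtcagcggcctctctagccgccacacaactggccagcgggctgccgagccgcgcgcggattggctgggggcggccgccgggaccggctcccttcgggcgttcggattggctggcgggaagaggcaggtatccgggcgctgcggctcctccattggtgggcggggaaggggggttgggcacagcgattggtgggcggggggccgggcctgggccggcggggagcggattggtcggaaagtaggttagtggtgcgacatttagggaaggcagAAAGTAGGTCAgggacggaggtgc
DBP: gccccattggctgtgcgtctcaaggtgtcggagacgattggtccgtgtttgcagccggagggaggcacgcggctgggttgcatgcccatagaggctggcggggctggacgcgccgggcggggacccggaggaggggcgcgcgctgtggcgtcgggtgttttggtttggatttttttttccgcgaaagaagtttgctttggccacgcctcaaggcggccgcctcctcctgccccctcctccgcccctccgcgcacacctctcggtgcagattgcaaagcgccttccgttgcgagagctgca
In the PER2 window the D-box form TTACGTAA begins 3 bases before the start and CACGTT begins 197 bases before it. The NR1D2 window holds 2 E-boxes, beginning 155 and 105 bases before the start, and the reverse of the D-box form TTATGTAA. The ARNTL window holds a ROR element 27 bases after the start, and the CRY1 window holds CACGTT on its other strand, 89 bases before the start. None of the searched letters occurs in the DBP window. In the windows not printed, PER1 holds an E-box 173 bases before its start and a D-box form TTATGCAA 30 bases before it, PER3 holds a D-box form in 1 of its 2 windows, and NR1D1 holds CACGTT on its other strand. CACGTT also occurs in 1 of 2 windows of both CRY2 and CLOCK, and no window of the 10 genes holds the cAMP response element. These are matches of letters in short windows and say nothing of whether a factor binds there.

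ARNTL and CLOCK, whose proteins form the activating pair, went in opposite directions. ARNTL (GRCh38 chromosome 11, 13276652 to 13387266, plus strand) stood at 9.56, 10.3 and 11.5 CPM in MGO libraries 1, 3 and 4 and at 6.68, 6.60 and 7.07 CPM in untreated libraries 1, 2 and 4. All MGO libraries lay above all untreated ones, and the log2 fold change was 0.63 (SE 0.0885, adjusted p = 1.42e-07, edgeR). CLOCK (chromosome 4, 55427903 to 55547138, minus strand), which also has acetyltransferase activity, stood at 23.1, 25.5 and 25.4 CPM in MGO libraries 1, 3 and 4 and at 27.6, 28.5 and 28.7 CPM in untreated libraries 1, 2 and 4. The groups were separate but close (log2 fold change -0.20, SE 0.0564, adjusted p = 0.00213, edgeR), and CLOCK was not called once the untreated libraries had been reduced at random to MGO depth (adjusted p = 0.0695, edgeR; range over alternatives 3.01e-10 to 1). The upper end of that range came from the stricter test for a change beyond 1.5-fold. Ratios between genes below were taken within a library with 2 added to each count. ARNTL had 0.417, 0.405 and 0.453 times the counts of CLOCK in MGO libraries 1, 3 and 4 and 0.243, 0.233 and 0.248 times in untreated libraries 1, 2 and 4. Reads of ARNTL relative to CLOCK were 1.76-fold higher in MGO, with no overlap between groups.

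The PER genes, whose proteins enter the nucleus with CRY, differed widely from each other. PER2 (chromosome 2, 238244038 to 238290102, minus strand) was covered by 239, 269 and 346 counts in MGO libraries 1, 3 and 4 and 181, 208 and 177 counts in untreated libraries 1, 2 and 4, although the untreated libraries were the deeper ones. Scaled, it stood at 14.7 ± 1.63 CPM in MGO and 4.14 ± 0.223 CPM in untreated cells (log2 fold change 1.83, SE 0.0932, adjusted p = 6.60e-18, edgeR). A larger absolute change was seen in 15.6% of all tested genes. PER1 (chromosome 17, 8140472 to 8156506, minus strand), which in many tissues responds quickly to cAMP and glucocorticoid signals, stood at 17.6, 19.4 and 17.8 CPM in MGO libraries 1, 3 and 4 and at 12.7, 14.6 and 14.3 CPM in untreated libraries 1, 2 and 4. Its groups did not overlap, but the rise was small (log2 fold change 0.40, SE 0.0707, adjusted p = 6.29e-06, edgeR). PER3 (chromosome 1, 7784320 to 7845177, plus strand), the paralog least needed for the rhythm in mice, had only 69 to 79 counts in MGO and 167 to 227 counts in untreated libraries. Its levels overlapped, at 3.70 to 3.92 CPM in MGO and 3.92 to 4.89 CPM in untreated libraries, with the highest value in untreated library 1 (log2 fold change -0.17, SE 0.128, adjusted p = 0.216, edgeR). Without that library the log2 fold change was -0.07 (adjusted p = 0.641, edgeR), and with the untreated libraries thinned to the depth of MGO it was -0.04 (adjusted p = 0.783, edgeR).

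The ratios among the PER transcripts differed between the groups. PER1 had 1.33, 1.34 and 1.08 times the counts of PER2 in MGO libraries 1, 3 and 4 and 3.22, 3.33 and 3.41 times in untreated libraries 1, 2 and 4. PER2 had 3.30, 3.82 and 4.30 times the counts of PER3 in MGO libraries 1, 3 and 4 and 0.799, 1.09 and 1.06 times in untreated libraries 1, 2 and 4. These ratios are taken inside a library and so need no scaling between libraries. PER1 over PER2 was 2.67-fold lower and PER2 over PER3 was 3.88-fold higher in MGO, and PER1 over PER3 was 1.46-fold higher. For PER1 over PER3 the value without untreated library 1 was a log2 difference of 0.38, against 0.54 with all libraries.

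**Figure D2:**
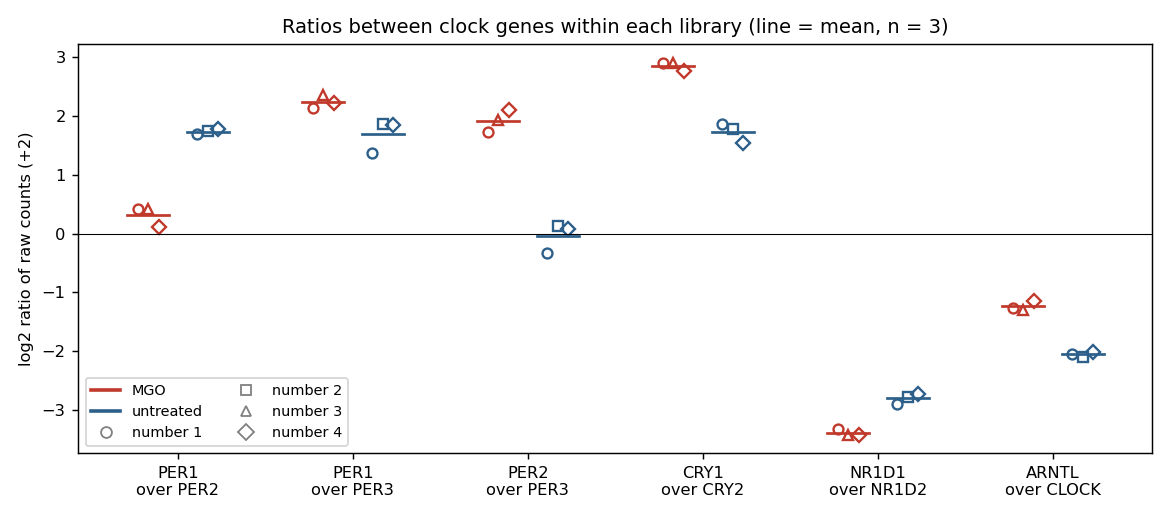
Log2 ratio of the raw counts of pairs of clock genes (each count plus 2) within every MGO library (red, left of each pair) and untreated library (blue, right), with lines at the mean of 3 libraries. The groups are separate for all 6 ratios, and PER2 over PER3 shows the widest gap, a log2 difference of 1.96.

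The CRY genes, which encode the main repressors of the ARNTL and CLOCK pair, were split. CRY1 (chromosome 12, 106991364 to 107093829, minus strand) stood at 48.4, 52.9 and 55.6 CPM in MGO libraries 1, 3 and 4 and at 25.5, 24.4 and 23.9 CPM in untreated libraries 1, 2 and 4. Every MGO library held more than any untreated one (log2 fold change 1.09, SE 0.0531, adjusted p = 2.24e-18, edgeR), and 33.1% of all tested genes had a larger absolute change. CRY2 (chromosome 11, 45847118 to 45883248, plus strand) stood at 6.35, 6.98 and 8.12 CPM in MGO libraries 1, 3 and 4 and at 6.96, 7.10 and 8.20 CPM in untreated libraries 1, 2 and 4. The CRY2 groups lay over each other (log2 fold change -0.04, SE 0.101, adjusted p = 0.701, edgeR), and its sign changed with some settings. CRY1 had 6.77 to 7.50 times the counts of CRY2 in MGO and 2.90 to 3.65 times in untreated libraries, so this ratio was 2.19-fold higher in MGO.

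Both REV-ERB genes rose, the beta form more. NR1D2 (chromosome 3, 23945260 to 23980618, plus strand) stood at 118, 124 and 128 CPM in MGO libraries 1, 3 and 4 and 69.2, 66.7 and 63.2 CPM in untreated libraries 1, 2 and 4. The groups stood far apart relative to their spread (log2 fold change 0.89, SE 0.0415, adjusted p = 6.18e-19, edgeR), but 40.7% of all tested genes had a larger absolute change. NR1D1 (chromosome 17, 40092787 to 40100725, minus strand) stood at 11.6, 11.5 and 11.8 CPM in MGO libraries 1, 3 and 4 and at 9.23, 9.65 and 9.54 CPM in untreated libraries 1, 2 and 4. Its rise was 1.23-fold (log2 fold change 0.30, SE 0.0773, adjusted p = 0.000797, edgeR) and was not called with no filter on low counts (adjusted p = 0.261, edgeR; range over alternatives 0.000116 to 1). Again the upper end came from the test for a change beyond 1.5-fold. NR1D1 overlaps THRA, a thyroid hormone receptor gene on the opposite strand, over 263 exon bases (9.49% of its exon length), and the sources used here do not say if strand was used in counting. THRA went the other way, at 34.3 ± 1.97 CPM in MGO and 72.3 ± 2.39 CPM in untreated cells. The count ratio of NR1D1 over NR1D2 was 1.51-fold lower in MGO, at 0.0932 to 0.0993 in MGO and 0.134 to 0.152 in untreated libraries.

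DBP, a PAR bZIP factor and a standard readout of clock output, fell most. DBP (chromosome 19, 48630030 to 48637438, minus strand) was covered by 50, 45 and 65 counts in MGO libraries 1, 3 and 4 and 482, 542 and 521 counts in untreated libraries 1, 2 and 4. Scaled, that was 2.76, 2.42 and 3.09 CPM in MGO and 10.4, 11.3 and 12.2 CPM in untreated libraries. The highest MGO library lay far below the lowest untreated one (log2 fold change -2.03, SE 0.115, adjusted p = 1.07e-16, edgeR), and 13.0% of all tested genes had a larger absolute change. DBP shares 661 exon bases (10.1% of its exon length) with SPHK2, a sphingosine kinase gene on the opposite strand that stood at 17.6 ± 0.896 CPM in MGO and 34.2 ± 0.672 CPM in untreated cells. SPHK2 fell by 0.96 on the log2 scale, and how far reads of the shared bases entered either count was not tested.

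**Figure D3:**
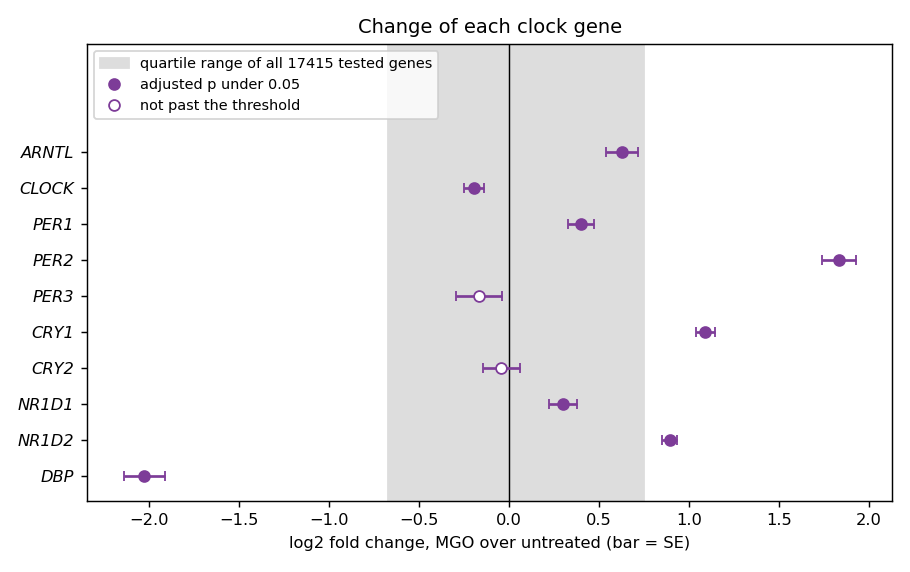
Log2 fold change of each clock gene, MGO over untreated, with its SE, against the range between the quartiles of all tested genes (grey, -0.67 to 0.75). PER2, CRY1 and NR1D2 lie above that range and DBP lies below it, and open symbols mark PER3 and CRY2, which did not pass the test.

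Across the 6 ratios compared the groups were separate each time, while single genes did not overlap in 83.5% of all tested genes. The 3 PER ratios are linked, since any 2 of them fix the other. The two-sided exact permutation test over libraries gave p = 0.1 for each, which is the smallest that 3 against 3 allows, and p = 0.1 after adjustment over the 6 ratios, so none can pass 0.05 in this design. In the MGO group, library 1 was the lowest of the 3 for 7 of the 10 clock genes, library 3 for 3 and library 4 for 0. Over all tested genes these shares were 36.5%, 28.0% and 35.6%. Library 1 also had the highest mitochondrial share. Without both libraries numbered 1, again 6 of the 10 genes were called higher and 2 lower.

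Per length of their merged exons, the clock genes ranked alike at the top and differently at the bottom in the groups. NR1D2 led at 21.2 ± 0.856 CPM per kb in MGO and 11.4 ± 0.522 CPM per kb in untreated cells, followed by CRY1 (10.3 ± 0.717 in MGO and 4.86 ± 0.163 in untreated cells) and NR1D1 (4.20 ± 0.0629 in MGO and 3.42 ± 0.0792 in untreated cells). PER2 stood at rank 5 in MGO at 2.14 ± 0.237 CPM per kb, overlapping CLOCK at 2.10 ± 0.115, and at rank 9 in untreated cells at 0.601 ± 0.0324, overlapping PER3 at 0.526 ± 0.0677. DBP stood last in MGO at 0.421 ± 0.0514 CPM per kb, overlapping PER3 at 0.468 ± 0.0142, and at rank 6 in untreated cells at 1.73 ± 0.141, overlapping PER1 at 1.98 ± 0.147. The other neighbours in either order had ranges that did not meet. The annotated exons of DBP merge to 6544 bases, isoforms of all lengths included, so its place depends on which transcript these cells make.

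**Figure D4:**
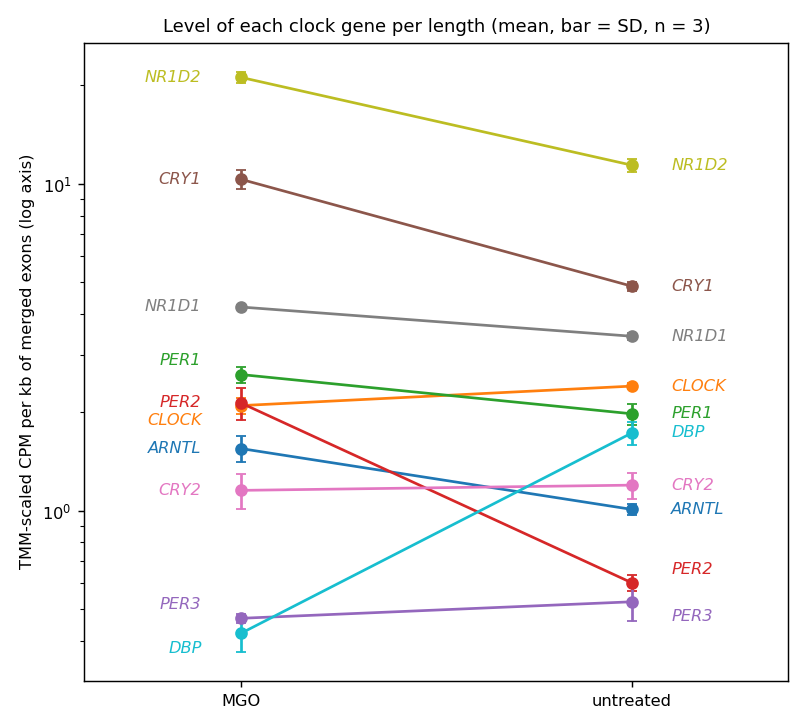
TMM-scaled CPM per kb of merged exons (log axis) for each clock gene in MGO (left) and untreated cells (right), as mean and SD of 3 libraries. NR1D2, CRY1 and NR1D1 lead in both groups, and the lines of PER2 and DBP cross each other and those of ARNTL and CRY2.

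Among further factors of the clock, 12 genes were listed and 11 could be tested, of which 2 rose, 8 fell and 1 was not called, beside 41.8% higher and 41.2% lower of all tested genes. The median log2 fold change was -0.36 over these factors and 0.01 over all tested genes. Those that rose were NFIL3, which represses through the same D-boxes that DBP activates (23.5 ± 1.82 CPM in MGO and 11.6 ± 0.259 CPM in untreated cells), and CIART, a repressor of the pair that was barely expressed (1.16 ± 0.262 CPM in MGO and 0.516 ± 0.184 CPM in untreated cells). DBP and NFIL3 thus differed in opposite directions, and the DBP relatives TEF (log2 fold change -0.32) and HLF (-0.83) also fell. HLF was low, at 1.59 ± 0.361 CPM in MGO and 2.80 ± 0.235 CPM in untreated cells. ARNTL2, a paralog of ARNTL, stood at 26.5 ± 1.42 CPM in MGO and 58.2 ± 1.17 CPM in untreated cells (log2 fold change -1.13, adjusted p = 2.31e-19, edgeR), opposite to ARNTL. BHLHE40, an E-box repressor, stood at 29.1 ± 3.61 CPM in MGO and 61.1 ± 3.33 CPM in untreated cells, and its paralog BHLHE41 had a log2 fold change of -0.88. NPAS2, a paralog of CLOCK, fell by 0.36 on the log2 scale. RORA, an activator at ROR elements, stood at 14.2 ± 0.728 CPM in MGO and 12.9 ± 0.828 CPM in untreated cells and was not called (adjusted p = 0.0705, edgeR), and RORB was too low to test. TEF, HLF, BHLHE41, NPAS2, RORA and RORB were singled out after their values were seen.

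Enzymes that modify clock proteins moved both ways. Of 17 genes 7 rose, 9 fell and 1 was not called (the median log2 fold change was -0.11), near the 41.8% higher and 41.2% lower of all tested genes. CSNK1D, a casein kinase 1 gene whose product phosphorylates PER proteins, stood at 636 ± 17.8 CPM in MGO and 155 ± 1.99 CPM in untreated cells (log2 fold change 2.04, SE 0.0363, adjusted p = 1.60e-29, edgeR). The related CSNK1E (log2 fold change 1.23) and CSNK1A1 (1.16), singled out after their values were seen, also rose. DYRK1A, a kinase of CRY2, stood at 322 ± 11.1 CPM in MGO and 118 ± 0.722 CPM in untreated cells. BTRC, the ubiquitin ligase subunit that takes phosphorylated PER to degradation, stood at 18.9 ± 1.49 CPM in MGO and 52.1 ± 2.21 CPM in untreated cells (log2 fold change -1.46, adjusted p = 1.07e-20, edgeR), while its paralog FBXW11 fell by only 0.12 on the log2 scale. FBXL21, whose mouse counterpart acts on CRY proteins, stood at 2.24 ± 0.555 CPM in MGO and 7.32 ± 0.381 CPM in untreated cells. GSK3B, a further clock kinase, had a log2 fold change of -1.22, and it and FBXW11 were also singled out after their values were seen.

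Among 14 chromatin and RNA binding partners of the clock, 7 rose, 6 fell and 1 was not called (the median log2 fold change was 0.18), beside 41.8% higher and 41.2% lower of all tested genes. Of these 14 genes 6 rose and 0 fell at least 2-fold, beside 19.8% and 16.7% of all tested genes. Over the 5 further lists together, 14 of 55 tested genes rose and 6 fell at least 2-fold. CREBBP, an acetyltransferase coactivator, stood at 332 ± 32.0 CPM in MGO and 126 ± 1.39 CPM in untreated cells. KMT2A, which writes H3K4 methylation and is known in mice as a partner of CLOCK, stood at 152 ± 4.12 CPM in MGO and 57.8 ± 3.81 CPM in untreated cells. KDM5A, an H3K4 demethylase that also acts as a coactivator of the pair, stood at 185 ± 6.44 CPM in MGO and 91.7 ± 2.22 CPM in untreated cells. The deacetylase HDAC1 (132 ± 8.83 CPM in MGO and 221 ± 4.03 CPM in untreated cells) and the acetyltransferase KAT2B (20.4 ± 0.990 CPM in MGO and 32.4 ± 0.775 CPM in untreated cells) fell.

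In the CREB arm, which induces PER genes after cAMP and calcium signals, 5 of 8 genes rose, 1 fell and 2 were not called (the median log2 fold change was 0.22), beside the same shares of all tested genes. The coactivator CRTC2 stood at 121 ± 3.66 CPM in MGO and 46.7 ± 0.722 CPM in untreated cells. CREB1 itself stood at 35.8 ± 1.24 CPM in MGO and 52.9 ± 1.16 CPM in untreated cells. SIK1, a kinase that restrains the CRTC coactivators, was low at 1.53 ± 0.309 CPM in MGO and 0.798 ± 0.0788 CPM in untreated cells, and it has a near-identical copy in this genome build, so its value is uncertain. Of 5 genes listed as clock outputs, 2 rose, 2 fell and 1 was not called. WEE1, a kinase that holds back mitosis, stood at 164 ± 8.50 CPM in MGO and 74.7 ± 1.74 CPM in untreated cells, and NAMPT, an enzyme of NAD synthesis, at 191 ± 1.88 CPM in MGO and 131 ± 2.75 CPM in untreated cells. PPARA, a receptor for fatty acids, stood at 8.73 ± 1.09 CPM in MGO and 35.8 ± 1.45 CPM in untreated cells, and TSC22D3 at 39.4 ± 3.46 CPM in MGO and 49.7 ± 4.64 CPM in untreated cells. Over the 5 lists together 23 of 55 tested genes rose and 26 fell (median log2 fold change 0.04), beside the 41.8% and 41.2% of all tested genes.

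**Figure D5:**
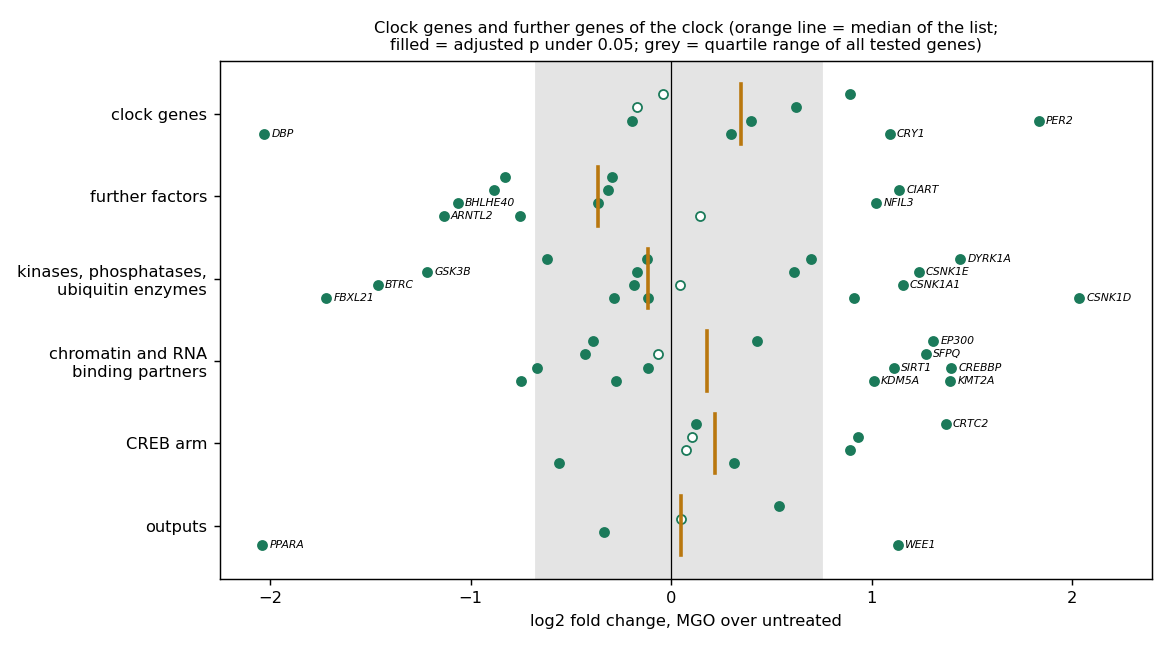
Log2 fold change, MGO over untreated, of the 10 clock genes and of the tested genes in 5 further lists of clock biology, with orange lines at list medians, filled symbols for adjusted p under 0.05 and grey for the range between the quartiles of all tested genes. The further factors have the lowest median at -0.36 and the 10 clock genes the highest at 0.35, and genes with an absolute log2 fold change of at least 1 are named.

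The genes whose profile over the 6 libraries came closest to PER2 were SESN2, SKOR1 and SNAPC4, and those closest to DBP were EID2B, ZNF503-AS2 and LPAR3. Closeness was the Euclidean distance between log2 CPM values after each gene's mean over the 6 libraries was subtracted. It was taken among 13333 other genes averaging at least 1 CPM in a group. Genes with clone, LOC, hsa or date names, and rows with a repeated name, were not compared. SESN2 lay at a distance of 0.116 from PER2 and stood at 230 ± 32.3 CPM in MGO and 67.3 ± 2.71 CPM in untreated cells. EID2B lay at a distance of 0.146 from DBP and stood at 2.49 ± 0.209 CPM in MGO and 10.0 ± 0.380 CPM in untreated cells. The libraries fall into 2 groups, so such closeness rests mainly on the size of the change.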

How the data were processed

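Poly(A) RNA was sequenced from 3 MGO and 3 untreated libraries of GLO1-knockout HEK293T cells. The authors deposited 1 table of raw, unscaled counts by gene symbol for every library. Trim Galore, STAR 2.4, Picard, HTSeq 0.9.1 and build hg38 are named per the submitters' processing notes, and the annotation and strand setting are not stated in the sources used here.

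The whole table was fitted with edgeR 4.0.16 in R 4.3.3 (filterByExpr, 17415 genes kept, TMM scaling, robust glmQLFit, two-sided glmQLFTest, 4 residual degrees of freedom, Benjamini-Hochberg adjustment at 0.05). The SE is the log2 fold change divided by the square root of F, log2 CPM used a prior count of 2, and ratios used raw counts plus 2. Chi-square per degree of freedom between libraries of a group, for genes reaching 20 counts in a pair, was 3.43 to 14.7 in MGO and 1.88 to 6.99 in untreated libraries, so no pair agreed within sampling noise, which gives about 1. Reads carry no molecular identifier, so PCR copies of a molecule count separately. In simulated data for this comparison (16172 genes tested) the test found 30 of the 46 genes given a 1.25-fold change. It found 41 of the 47 given a 1.5-fold change and 52 of the 53 given a 2-fold change. Of its 192 calls 15 were false, a share above 0.05. Few genes were changed in the simulation, while 83.1% of tested genes were called in the data, so these rates need not carry over. Coordinates and exon lengths come from GENCODE 29 on GRCh38, the assembly of hg38.

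The members and lists were chosen with earlier results of these data known, and 2 genes of the further lists are not reported here and are in no list count. The rule for named genes took the 10 members, GLO1, up to 2 called genes with the largest rise and fall in each further list at 1 CPM or more in a group, KMT2A and KDM5A, and the 3 closest profiles to the largest rise and fall. THRA, SPHK2 and the marker genes were given beside results they touch. The alternatives covered scaling (RLE, upper quartile, library size), filters, leaving out libraries, the replicate block, thinning to equal depth, limma 3.58.1 voom, DESeq2 1.42.0, non-robust edgeR and a threshold of 1.5-fold.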

Additional observations from a re-analysis of the deposited data

How the results depend on the processing

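Of 180 recomputed values of single clock genes (10 genes, 18 alternatives), 168 kept their direction and their side of the threshold. PER2, CRY1, NR1D2 and DBP kept both under all 18, with log2 fold changes of 1.65 to 1.90, 0.91 to 1.16, 0.71 to 0.96 and -2.21 to -1.95. The sign of CRY2, which was not called, turned to 0.023 with at least 1 CPM in every library, 0.0090 without MGO replicate 1 and 0.023 without untreated replicate 4, in a range of -0.19 to 0.023 over single libraries left out. The filter on low counts kept 17415 genes, with a median log2 fold change of 0.01. With no such filter 35722 genes were tested, with a median of 0.2, and 49.3% of them were called. All 10 clock genes then had lower log2 fold changes than in the main fit, at 1.65 for PER2 and -2.21 for DBP. The shift was nearly the same for each of them, so it is one of scale and not particular to single genes. With it 5 clock genes were called higher and 4 lower, as PER3 (adjusted p = 0.0147, edgeR) and CRY2 (adjusted p = 0.0454, edgeR) passed and NR1D1 did not. PER3 also passed with library size scaling (adjusted p = 0.0459, edgeR), which put the median of all genes at -0.10. Thinning the untreated libraries left 1 gene lower. Against a fold of 1.5, 3 clock genes were higher and 1 lower, as PER1, NR1D1, ARNTL and CLOCK were no longer called. In the 5 further lists 18 genes were higher and 10 lower. This stricter test called 47.7% of all tested genes, against 83.1% in the main fit, so fewer calls are not particular to clock genes. Leaving out 1 library at a time gave 6 higher and 2 lower clock genes throughout, and 22 to 24 higher and 26 to 27 lower genes in the further lists. With the same libraries left out the log2 ratio differences ran from -1.47 to -1.32 for PER1 over PER2, 0.38 to 0.63 for PER1 over PER3, 1.81 to 2.05 for PER2 over PER3, 1.04 to 1.20 for CRY1 over CRY2, -0.64 to -0.55 for NR1D1 over NR1D2 and 0.77 to 0.85 for ARNTL over CLOCK. All 54 recomputed ratio differences kept their direction. As the groups were separate for all 6 ratios, leaving out libraries could not have turned a direction. Only the change of the added count to 0.5 could have done so.

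Numbers 1 and 4 occur in both groups, but no label says that a number marks a shared culture or day. Over all tested genes, deviations of same-numbered libraries from their group means were hardly correlated (0.0204 and -0.0078). Library 1 nevertheless differed most from the others in either group. Chi-square per degree of freedom in pairs with library 1 was 7.44 and 14.7 in MGO, against 3.43 in the other pair. In untreated libraries it was 6.99 and 6.39, against 1.88. Whether a number marks a shared source cannot be told from these values. With the replicate block 6 clock genes were again higher and 2 lower, and 77.2% of all genes were called. A number found in only 1 group carries no information on MGO in that fit. Its effects therefore rest on the libraries numbered 1 and 4 alone. PER3 and DBP in MGO rest on 45 to 79 counts a library, which limits their precision.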
